A study of Mus musculus with 2 samples.

Results

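The Hox genes encode homeodomain transcription factors that lie in 4 clusters, called a, b, c and d. The members described here are the genes whose symbol on the array is Hox, a cluster letter and a paralogue number, taken only from probe sets that name 1 gene. RefSeq lists 39 Hox genes in the mouse, of which 33 had such a probe set, among 18193 genes on the array. These 33 genes were read by 48 probe sets, 16 in cluster a, 11 in cluster b, 11 in cluster c and 10 in cluster d. Of the other 6 Hox genes, Hoxb8 and Hoxd4 were named only by probe sets that also name a neighbouring Hox gene.

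The 2 samples were epithelium of ICR mouse fetal lung, isolated at embryonic day 11. Both were first cultured for 4 days in matrigel with FGF10, a growth factor needed for lung bud outgrowth, and with CHIR99021, which blocks glycogen synthase kinase 3 and thereby activates canonical Wnt signalling. The epithelium was then cut into fragments, embedded again and grown with FGF10 for 2 days, with CHIR99021 in 1 sample and without it in the other. Both samples had thus received CHIR99021, and the comparison is of keeping it against withdrawing it. Each condition was read on 1 Affymetrix array, so a value has no replicate, its spread between cultures is unknown and the conditions could not be compared by a test.

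Within a Hox cluster the paralogue number follows the order of the genes on the chromosome. In the embryo the low numbers are switched on early and towards the head, and the high numbers later and towards the tail, and Polycomb complexes keep the clusters silent where they are not used. Retinoic acid, Cdx factors and Wnt signalling are known inputs of Hox transcription, and Hox proteins bind DNA together with Pbx and Meis cofactors. In the developing lung, Hox genes of the middle paralogue groups, Hoxa5 and Hoxb5 among them, are known mainly from the mesenchyme around the epithelium.

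The signals are MAS5 intensities, which are linear and have no unit. A background floor was set on each array at the 95th percentile of 80 probe sets for olfactory and vomeronasal receptors, genes of sensory neurons, which gave 19.2 without CHIR99021 and 12.7 with it. Across the array, 71.0% of genes exceeded the floor on 1 array or more, and 62.4% did so on both. Over the latter the median log2 ratio, with CHIR99021 over without, was -0.40, and the Actb signal at the 3' end relative to the 5' end, a check of RNA integrity and labelling, was 1.29 without CHIR99021 and 3.18 with it. The part of these differences in the values below was not tested.

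Most Hox genes were not above the background on either array. Only 6 of the 33 genes, Hoxa3, Hoxa5, Hoxa9, Hoxb2, Hoxb9 and Hoxc6, exceeded the floor on 1 array or more, and only Hoxa5 and Hoxa9 on both. The other 27 were below it on both arrays, so these arrays give only an upper bound for them and no direction. None of the 48 probe sets reached a signal of more than 45.1.

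Counted by probe set, 5 of 48 (10.4%) were above the floor without CHIR99021 and 3 of 48 (6.25%) with it. The floor puts 4 of the 80 receptor probe sets (5%) above it on each array by its construction. Among all 34945 probe sets that name 1 gene the shares were 64.4% and 63.0%. The median signal was 5.32 for Hox probe sets and 6.52 for receptor probe sets without CHIR99021, and 3.26 and 3.42 with it. On both arrays the Hox probe sets thus lay in the range of the receptor probe sets, whose signals went up to 41.7 without CHIR99021 and 23.2 with it. The signals above these maxima were 1 on the array without CHIR99021, that of Hoxa9, and 2 on the array with it, those of Hoxa5 and Hoxa9.

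**Figure D1:**
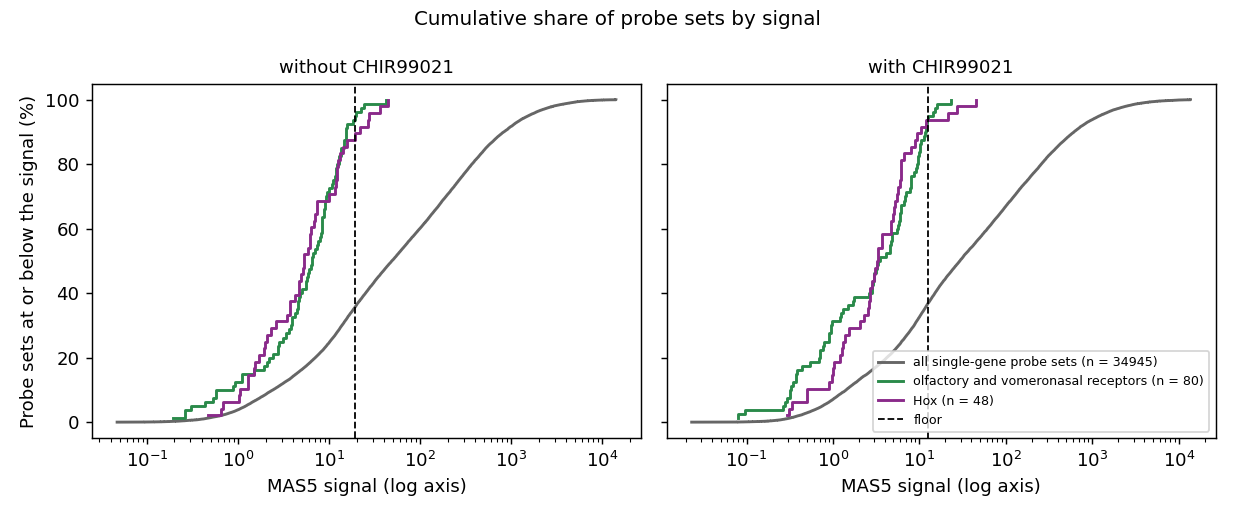
Cumulative share of probe sets (percent, vertical) at or below a given MAS5 signal (horizontal, log axis) on the array without CHIR99021 (left) and with it (right), for all 34945 single-gene probe sets, the 80 receptor probe sets and the 48 Hox probe sets. The dashed line is the floor, and the Hox curve runs beside that of the receptors, with medians of 5.32 against 6.52 without CHIR99021 and 3.26 against 3.42 with it.

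Hoxa5 and Hoxa9 were the genes above the floor on both arrays. Their promoters are shown with that of Hoxa7, which lies between them on the chromosome and was below the floor on both. Each window holds the 250 bases before the annotated start, from RefSeq with build GRCm38.p6, on the minus strand, at chr6:52204588-52204837 for Hoxa5, chr6:52218574-52218823 for Hoxa7 and chr6:52227371-52227620 for Hoxa9. CpG dinucleotides, the sites of DNA methylation that are dense in CpG islands, are in capitals.
Hoxa5: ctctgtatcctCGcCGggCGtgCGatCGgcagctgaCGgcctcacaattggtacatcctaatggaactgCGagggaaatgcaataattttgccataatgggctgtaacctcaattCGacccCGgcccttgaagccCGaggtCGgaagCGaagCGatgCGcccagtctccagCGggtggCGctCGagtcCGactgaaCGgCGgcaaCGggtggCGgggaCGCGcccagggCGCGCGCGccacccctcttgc
Hoxa7: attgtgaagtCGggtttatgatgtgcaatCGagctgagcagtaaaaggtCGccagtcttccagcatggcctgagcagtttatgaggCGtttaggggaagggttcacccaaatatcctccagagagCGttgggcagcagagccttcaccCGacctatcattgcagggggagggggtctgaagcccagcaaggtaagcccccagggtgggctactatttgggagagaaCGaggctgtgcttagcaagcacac
Hoxa9: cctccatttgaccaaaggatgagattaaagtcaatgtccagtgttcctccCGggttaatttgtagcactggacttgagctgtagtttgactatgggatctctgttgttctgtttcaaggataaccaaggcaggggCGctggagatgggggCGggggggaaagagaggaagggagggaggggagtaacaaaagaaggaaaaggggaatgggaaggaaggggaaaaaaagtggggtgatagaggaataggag
The Hoxa5 window held 28 CpG, that of Hoxa7 7 and that of Hoxa9 3. The promoter table gave 24 windows for 22 Hox genes, 19 of them with a probe set of their own. Their median was 12.5 CpG, with a range from 2 to 35, against a median of 6 over all 32851 windows of the same length. The 2 genes above the floor on both arrays did not share a CpG count. Hoxa5 lay above the median of the Hox windows and Hoxa9 near their lowest value. Of the genes above the floor on 1 array, Hoxa3 had 18 CpG, and Hoxb2, Hoxb9 and Hoxc6 had no window. The Hoxa3 window lies between those of Hoxa6 and Hoxa7, before the start of an annotated span that also covers Hoxa4, Hoxa5 and Hoxa6. The letters of a TCF/LEF motif, CTTTGAT or its reverse complement ATCAAAG, stood in 1 of the 24 windows (4.17%), that of Hoxd8, against 3.21% of all windows. TATAAA or its complement TTTATA stood in 4 of 24 (16.7%) against 12.4%.

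Cluster a held 3 of the 6 genes above the floor. Its 9 measurable genes had signals from 1.51 to 44.8 without CHIR99021 and from 2.61 to 45.1 with it. Hoxa5, a factor of lung and axial patterning, had a signal of 36.1 without and 45.1 with CHIR99021 by the probe set 1443803_x_at, a log2 ratio of 0.32. Its other probe set, 1448926_at, was below the floor on both arrays, at 2.07 without and 4.68 with CHIR99021. The value above the floor therefore rests on 1 probe set, whose suffix _x_at marks probes that may match other sequences too.

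Hoxa9, a posterior factor also known from blood stem cells, had 44.8 without and 27.3 with CHIR99021 by the probe set 1421579_at. That is a log2 ratio of -0.72, 1.64-fold lower and within the 2-fold threshold. Its second probe set, 1455626_at, had 12.1 without and 3.21 with CHIR99021 and was below the floor on both. The value above the floor therefore rests on 1 probe set here too.

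Hoxa3, an anterior factor that patterns the pharyngeal arches, had 27.2 without CHIR99021 and 9.34, under the floor, with it by the probe set 1431392_at, at least 2.13-fold lower. Its 3 other probe sets had 3.67 to 5.30 without and 0.292 to 2.66 with CHIR99021, all below the floor. The annotated span of Hoxa3 also covers Hoxa4, Hoxa5 and Hoxa6, so its probe sets may read transcripts that share these stretches. Hoxa2, Hoxa4, Hoxa7, Hoxa10, Hoxa11 and Hoxa13 were below the floor by all of their probe sets.

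In cluster b, Hoxb2 and Hoxb9 were above the floor, each on 1 array. Hoxb2, a factor of the hindbrain, had 26.8 without CHIR99021 and 2.99 with it, below the floor, which makes it at least 2.11-fold lower. Hoxb9, a posterior factor, had 13.1 without CHIR99021, below the floor, and 21.6 with it, a difference of at least 1.13-fold. They were the only members of their cluster above the floor, each on a different array, and the difference of Hoxb9 did not reach 2-fold. Hoxb4 came nearest to the floor among the genes below it, with 19.1 without CHIR99021, 0.994 times the floor before rounding, and 6.70 with it. Hoxb1, Hoxb3, Hoxb5, Hoxb6, Hoxb7 and Hoxb13 were also below the floor on both arrays. Hoxb5, named above for the lung mesenchyme, had 6.81 without and 5.21 with CHIR99021.

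In cluster c, only Hoxc6, a factor of the thoracic region, was above the floor, and only on the array without CHIR99021. Its probe set 1427362_x_at had 22.1 without and 6.01 with CHIR99021, at least 1.73-fold lower. Its other probe sets had 6.12 and 2.28 without CHIR99021 and 10.5 and 2.53 with it, and both were below the floor on both arrays. Of the members above the floor Hoxc6 was the nearest to it, at 1.15 times the floor. Hoxc4, Hoxc5, Hoxc8, Hoxc9, Hoxc10 and Hoxc13 were below it on both arrays.

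In cluster d, none of the 8 measurable genes was above the floor. Hoxd1, Hoxd3, Hoxd8, Hoxd9, Hoxd10, Hoxd11, Hoxd12 and Hoxd13 had signals from 0.642 to 14.1 without CHIR99021 and from 0.340 to 11.8 with it. Hoxd9 came nearest to the floor, at 0.931 times it with CHIR99021.

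**Figure D2:**
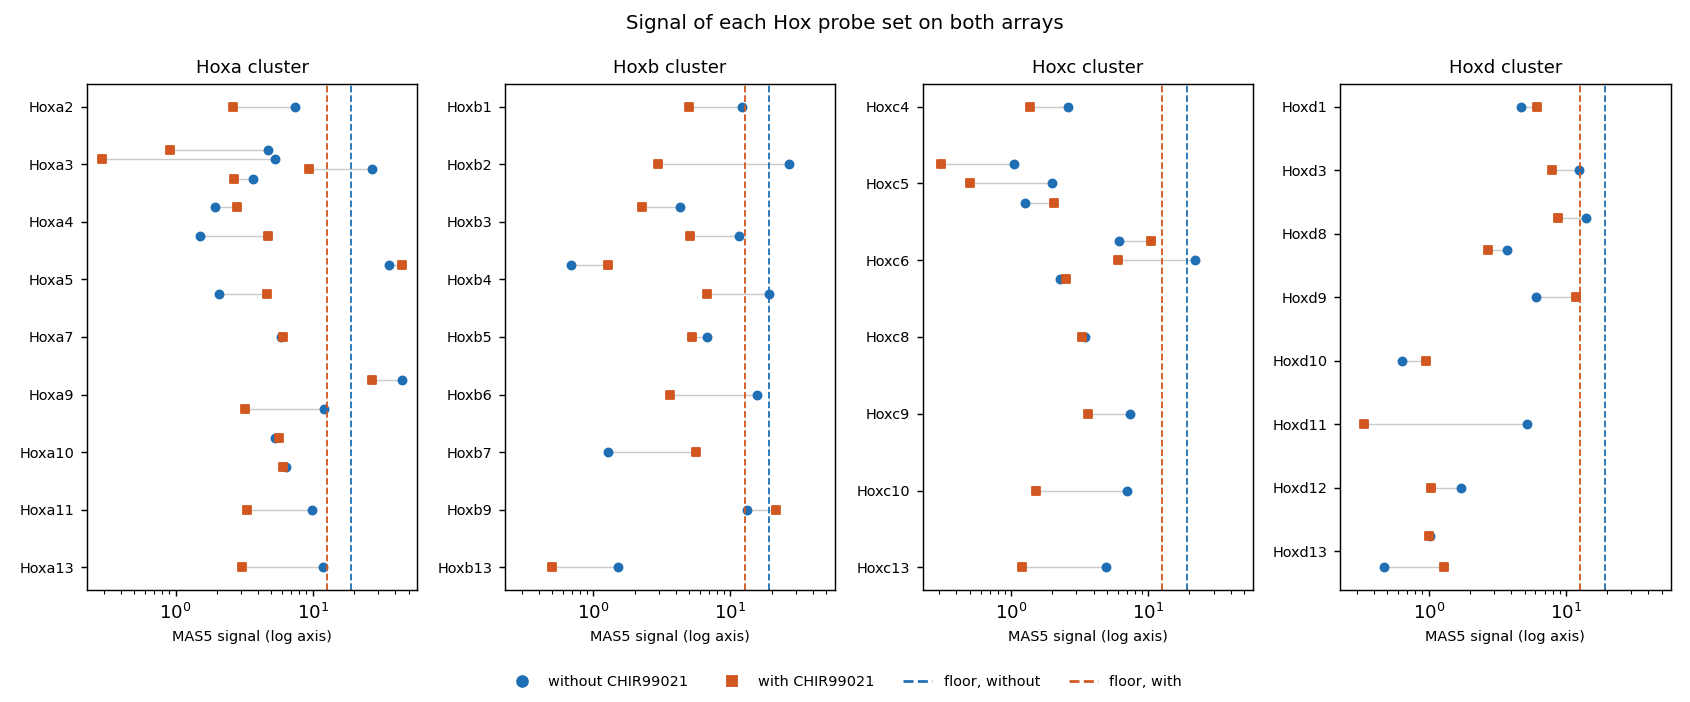
MAS5 signal (log axis) of each of the 48 Hox probe sets on the array without CHIR99021 (circles) and with it (squares), by cluster and, from top to bottom, by paralogue number; a gene with several probe sets has a line for each. The dashed lines are the floors of 19.2 without and 12.7 with CHIR99021, and only Hoxa5 and Hoxa9 have a probe set to the right of its floor on both arrays.

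The 6 genes above the floor on 1 array or more had low, middle and high paralogue numbers. Among paralogues 1 to 4 they were 2 of 10 genes, Hoxa3 and Hoxb2. Among paralogues 5 to 8 they were 2 of 9, Hoxa5 and Hoxc6, and among paralogues 9 to 13 they were 2 of 14, Hoxa9 and Hoxb9. Of the paralogue groups, group 9 was the only 1 with more than 1 gene above the floor, Hoxa9 and Hoxb9, while Hoxc9 (7.41 without and 3.64 with CHIR99021) and Hoxd9 (6.11 and 11.8) were below it. Groups 1, 4, 7, 8, 10, 11, 12 and 13 had none. Over all genes, 71.0% were above the floor on 1 array or more. With 6 genes above it, each by 1 probe set, these counts allow no statement on order along the clusters.

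Of 11 Hox genes with several probe sets, 7 were below the floor on both arrays by all of them. The other 4, Hoxa3, Hoxa5, Hoxa9 and Hoxc6, had 1 probe set above it each, which their other probe sets did not match. Hoxb2 and Hoxb9 were read by a single probe set each. No member was thus above the floor by more than 1 probe set. Of the 5 Hox probe sets with suffix _x_at or _s_at, which may match several transcripts, 2 exceeded the floor on 1 array or more. Of the 43 others 4 did. Together these are 6 of 48 (12.5%), against 7 of the 80 receptor probe sets (8.75%) from which the floor was set. Among all single-gene probe sets 68.6% exceeded the floor on 1 array or more, and among those with these suffixes 78.8%.

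With CHIR99021 0 of the 6 Hox genes past the floor reached a 2-fold higher signal, and 2, Hoxa3 and Hoxb2, a 2-fold lower one. Of 12917 genes past the floor on the whole array, 1.90% reached 2-fold in the upward direction and 18.4% in the downward one, or 8.59% and 5.91% after median centring, which moved all log2 ratios up by the same amount. Both Hox calls are bounds just past 2-fold, since both genes were below the floor with CHIR99021. Both ended under each of the other scalings: after median centring the bounds for Hoxa3 and Hoxb2 were log2 ratios of -0.47 and -0.45, and with scaling on the hybridization controls -0.93 and -0.91. The 2 genes above the floor on both arrays had a median log2 ratio of -0.20, against -0.40 over 11356 genes, with Hoxa5 at 0.32 and Hoxa9 at -0.72. After median centring these were 0.94 and -0.10, and after quantile normalization Hoxa5 passed 2-fold, at 1.01. No direction for the Hox genes as a group can be read from these values.

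The genes on either side of the clusters were mostly above the floor. The 3 nearest protein-coding genes with a probe set on each side of each cluster, Evx1 and Evx2 set apart, were taken for this, a choice made after values of the region had been seen. Of these 24 genes, 22 were above the floor on both arrays, where 62.4% of all genes were, and Skap1 and Calcoco2, both beside cluster b, were below it on both. Beside cluster a, Skap2, a signalling adaptor, had 287 without and 124 with CHIR99021, and Hibadh, an enzyme of valine breakdown, 2076 and 1001. Beside cluster c, Smug1, a DNA repair enzyme, had 274 and 191, and beside cluster d, Mtx2, a protein of mitochondrial import, had 1128 and 1358, and Lnpk, a protein of the endoplasmic reticulum, 247 and 200. Of the 24 neighbours 0 were at least 2-fold higher with CHIR99021 and 6 lower, beside 1.90% and 18.4% of all genes past the floor. After median centring 1 was higher and 1 lower, and with the other 3 scalings 0 were higher and 2 to 5 lower, so these counts depend on the scaling. In each of the 4 regions the first such neighbour on 1 side or both was above the floor on both arrays.

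**Figure D3:**
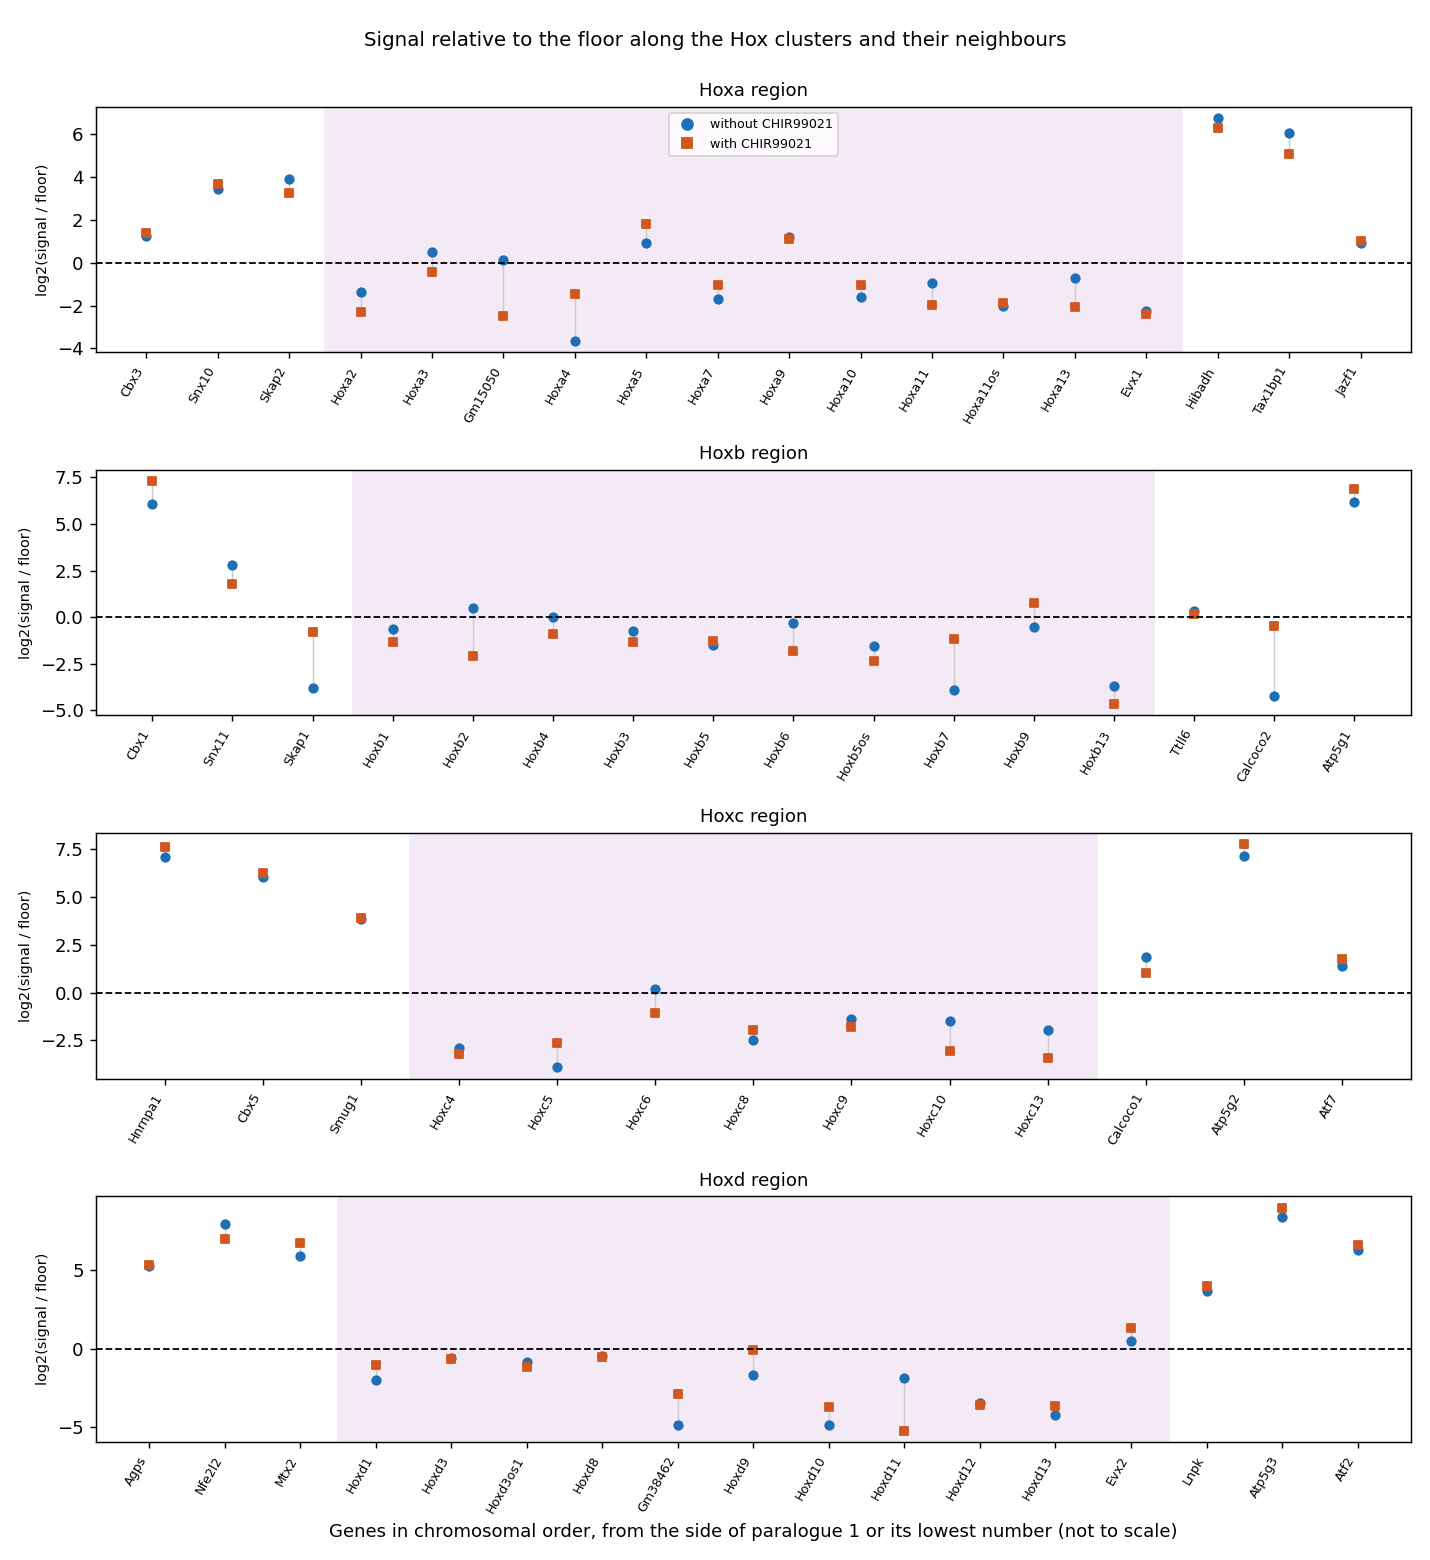
Signal relative to the array's floor (log2, vertical) of the genes in chromosomal order along each Hox cluster (shaded, with Evx and noncoding genes) and the 3 nearest protein-coding neighbours on each side, without CHIR99021 (circles) and with it (squares). A value of 0 is the floor, only genes with a single-gene probe set are drawn, and 22 of the 24 neighbours lie above 0 on both arrays against 2 of the 33 Hox genes.

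The proteins that work with Hox factors were measured in part. Of 10 listed cofactor genes 9 had a probe set and 6 were above the floor, all on both arrays, where 62.4% of all genes were. Of the 6, 0 were at least 2-fold higher and 1 lower with CHIR99021, or 2 higher and 0 lower after median centring. Their median log2 ratio was -0.14. For comparison, 1.90% of all genes past the floor were higher and 18.4% lower, and with median centring 8.59% and 5.91%. Pbx2, a homeodomain partner of Hox proteins, had 996 without and 428 with CHIR99021, 2.33-fold lower, and Pbx3 1038 and 1636. The other probe set of Pbx3 had 355 and 365. Meis1, a further partner, was near the floor at 30.0 and 15.1, and Meis2 was below it on both arrays by all 4 probe sets. Gmnn, which binds Hox proteins and controls replication, had 901 without and 1319 with CHIR99021. Pbx2 and Pbx3 were thus far above the floor on both arrays, while Pbx4 was below it on both.

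All 27 measured genes of a list of Hox cluster regulators were above the floor on both arrays, where 62.4% of all genes were. Most belong to the Polycomb and Trithorax systems, which hold Hox clusters silent or active, and the list also holds Ctcf, an insulator protein, and Dot1l, a histone methyltransferase outside both systems. Of them 1 was at least 2-fold higher and 1 lower with CHIR99021, or 2 higher and 0 lower after median centring. Their median log2 ratio was -0.14. Among all genes past the floor 1.90% were higher and 18.4% lower, or 8.59% and 5.91% after median centring. Ezh2, the Polycomb methyltransferase, had 1660 without and 1971 with CHIR99021, Eed, its partner, 1214 and 1235, and Suz12, a further subunit, 1815 and 1814. Cbx2, a Polycomb reader of methylated histones, had 89.8 and 182, 2.03-fold higher, with its other probe set below the floor on both arrays. Kmt2a, the Trithorax methyltransferase known to maintain Hox transcription, had 241 without and 86.9 with CHIR99021, 2.77-fold lower, but its other probe set had 102 and 123. Jarid2, a Polycomb cofactor, had 679 and 383, and Ash2l, a Trithorax core subunit, 925 and 523. Genes for both silencing and activation were thus detected on both arrays.

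Among the retinoid and Cdx genes, 11 of 18 with a probe set exceeded the floor on 1 array or more and 5 on both, with 0 at least 2-fold higher and 3 lower with CHIR99021, or 0 higher and 2 lower after median centring. Over all genes, 71.0% exceeded the floor on 1 array or more and 62.4% on both. Of those past the floor 18.4% were at least 2-fold lower, or 5.91% after median centring. The median log2 ratio of the 5 was -0.88. Rarb, a retinoic acid receptor and itself a target of retinoic acid, had 238 without and 25.1 with CHIR99021, 9.47-fold lower. Aldh1a1, which makes retinoic acid, had 1107 and 65.7, 16.8-fold lower, and Aldh1a2, the main such enzyme of embryonic mesoderm, had 26.9 without CHIR99021 and 1.38, under the floor, with it, which makes it at least 2.12-fold lower. Cdx2, an intestinal factor that activates Hox genes, had 24.4 without CHIR99021 and 1.54, under the floor, with it by 1 probe set. Its other probe set was below the floor on both arrays, at 2.88 and 1.39. Cdx1 and Cdx4 were below the floor on both arrays.

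The samples carried the markers of lung epithelium, with 16 of 16 listed genes past the floor on 1 array or more and 15 on both. The exception was Nkx2-1, the lung identity factor, which had 52.0 without CHIR99021 and 5.84, under the floor, with it. Epcam, a surface adhesion protein of epithelia, had 3846 without and 3743 with CHIR99021, Cdh1, E-cadherin, 6414 and 3574, and Sftpc, surfactant protein C, 8808 and 8500. Sox9, of the distal tip, was 11.0-fold higher with CHIR99021, and Krt8, Krt18, keratins of simple epithelia, and Shh, a Hedgehog ligand, were 2.45-fold, 2.38-fold and 2.21-fold lower. In all, 1 listed gene was at least 2-fold higher and 4 lower, but 2 higher and 1 lower after median centring. Krt8, Krt18 and Shh were then no longer past 2-fold. With quantile, loess or hybridization control scaling, 1 listed gene was higher and 3 lower, so the loss of most lower calls was particular to median centring. Of all genes 71.0% were past the floor on 1 array or more and 62.4% on both. Among those past it 1.90% were higher and 18.4% lower, or 8.59% and 5.91% after median centring.

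Markers of lung mesenchyme, the tissue in which lung Hox genes are mainly known, were in part below the floor and in part well above it. Of 25 listed genes 12 exceeded the floor on 1 array or more and 9 on both, where 71.0% and 62.4% of all genes did. The summed signal of the list was 1335 without and 1062 with CHIR99021. The brightest was Tbx3, a T-box factor, at 473 and 313, and Acta2, smooth muscle actin, had 199 and 194. Tbx4, the defining factor of lung mesenchyme, was below the floor on both arrays, at 4.80 and 6.28. Foxf1, a Hedgehog target there, was above the floor on 1 array by each of its probe sets. The probe set with the higher mean log2 signal had 18.0, below the floor, without and 14.9, above it, with CHIR99021, and the other had 25.7, above the floor, and 3.89, below it, so the array on which Foxf1 was above the floor depends on the probe set. Tbx5 had 9.35, below the floor, and 20.8, and Tcf21 24.1 and 13.2. Col1a1, a fibrillar collagen, had 24.7 and 35.8, Col3a1 88.7 and 54.6, and Vim, an intermediate filament protein not limited to mesenchyme, 257 and 245. The other probe sets of Acta2, Tbx5, Tcf21, Col1a1 and Col3a1 were below the floor on both arrays, while those of Vim were above it. That of Col1a1 had 15.6 without and 3.04 with CHIR99021, so its value above the floor rests on 1 probe set. Tagln, of smooth muscle, was 2.44-fold lower with CHIR99021 (13.7 against 33.4), the 1 listed gene past 2-fold. After median centring 1 gene was higher and 0 lower. The shares over all genes past the floor were 1.90% higher and 18.4% lower, or 8.59% and 5.91% after median centring. The part of mesenchymal cells in the few Hox signals above the floor was not tested, and in such bulk samples fewer cells of a type and less RNA per cell cannot be told apart.

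Markers of other cell types were in part below the floor on both arrays and in part above it. On 1 array or more, 71.0% of all genes exceeded the floor. Of 8 endothelial genes 3 were above it, all on both arrays. Esam had 75.2 without and 141 with CHIR99021, Cldn5 39.0 and 20.2, and Kdr 32.0 and 23.5. Pecam1, which defines these cells, was below the floor at 2.26 and 3.45. Of 6 measured blood and immune genes 2 were above the floor, Csf1r at 48.4 and 54.4 and Cd68 at 28.1 and 19.4. Ptprc, the pan-leukocyte marker, was below it at 5.01 and 5.35. Of 6 measured neural crest and neuron genes 2 were above it, Ret at 20.9 and 13.2, and Elavl4 at 16.2, below the floor, and 24.0. Of 5 mesothelial genes 3 were above it on at least 1 array, Msln, Upk1b and Lrrn4. Upk1b had 25.3 without and 17.6 with CHIR99021, and Lrrn4 6.36, below the floor, and 14.8. Among the last, Msln, which is also made by some epithelia, had 471 without CHIR99021 and 4.84, under the floor, with it, which makes it at least 37.0-fold lower. In these 4 lists Msln was the 1 gene past 2-fold on the authors' scale, while after median centring 1 endothelial gene was higher as well.

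**Figure D4:**
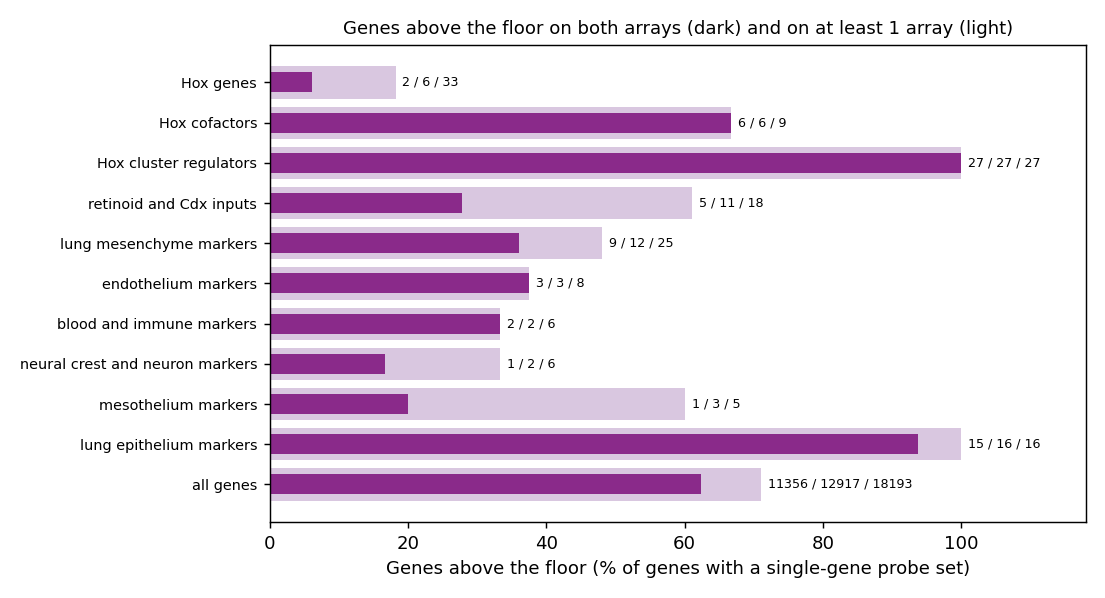
Share of the genes with a single-gene probe set (percent, horizontal) that were above the floor on both arrays (dark) and on at least 1 array (light) for the Hox genes, the lists of related genes and cell type markers, and all genes; the labels give both counts and the number of genes. For the Hox genes these are 2 and 6 of 33, against 11356 and 12917 of 18193 for all genes.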

How the data were processed

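The values deposited by the authors are signal intensities of 2 arrays, made with MAS5 per the submitters' processing notes, which give no version or scaling target. The labels' protocols give 100 ng of total RNA, labelled with a 3' in vitro transcription kit, so that probe sets read mostly 3' ends. MAS5 subtracts mismatch signal, which makes dim values scatter, and no detection call was used here. Medians over non-control probe sets were 32.9 without and 20.3 with CHIR99021, so the arrays were not brought to 1 median. The number of arrays, 1 per condition, limits the precision.

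Probe sets were named from the platform annotation. All 48 Hox probe sets were matched through Entrez identifiers to the RefSeq table of GRCm38.p6, with 0 symbols changed. Of 45101 probe sets, 34945 named 1 gene, 932 several, and 9160 were not named here. A gene was represented by its brightest single-gene probe set, by mean log2 signal. Values below the floor were raised to it, so a ratio with 1 array below is a bound ("at least"). Ratios past 2-fold were called. Over the 5335 genes with several probe sets past both floors, log2 ratios of probe sets of a gene had an SD of 0.557, which is no error between cultures.

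Named were all Hox genes, up to 4 members of each other list with the largest change, 11 fixed markers, and the neighbours of the clusters; Eed, Suz12, Ezh2, Meis2, Cdx1, Cdx4, Tbx5, Shh, Tbx3, Acta2, Ctcf and Dot1l were added after their values were seen. The members and lists were chosen with earlier results of these data known. Promoter windows came from RefSeq. Python 3.11.15, numpy 2.4.6, pandas 2.3.3, statsmodels 0.14.6 and matplotlib 3.10.9 were used, and the calling of changes was tested on simulated data. Alternatives were median centring, quantile and loess normalization (span 0.4), scaling on hybridization controls, other floors, an offset of 16, other choices of probe set and other folds; the scalings of the other lists and of the neighbours were added after seeing the data.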

Additional observations from a re-analysis of the deposited data

Results flagged for a closer look

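Some probe sets in or beside the Hox clusters that were not used for the Hox genes above, since they name another gene or several Hox genes, were above the floor, 3 of 12 on at least 1 array and 1 on both. Evx2, a homeobox gene beside cluster d, had a signal of 27.4 without and 31.5 with CHIR99021, while the 8 measurable Hox genes of that cluster were below the floor. Gm15050, a noncoding gene inside cluster a, had 21.3 without CHIR99021 and 2.29, under the floor, with it. A probe set that names both Hoxd4 and Hoxd3 had 19.5 without CHIR99021, just above the floor of 19.2, and 2.37 with it. The second probe set naming both genes was below the floor on both arrays.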

How the results depend on the processing

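The count of Hox genes above the floor on at least 1 array, 6, was the same under all 4 other scalings, and it ranged from 4 to 9 under the other choices run, apart from 2 with a floor 2 times higher. The count above it on both arrays was 2, but 1 with that floor or without _x_at and _s_at probe sets, and 0 when a gene's probe sets were averaged by their median. No Hox gene was at least 2-fold higher except 1 after quantile normalization and 2 without a floor. The shares over all genes compared were then 7.38% and 6.67%. The count of lower Hox genes, 2, stayed with a floor at the 90th percentile and without _x_at and _s_at probe sets. It was 0 after median centring, quantile, loess or hybridization control scaling, with the doubled floor or at 3-fold. With an offset of 16 or the median over probe sets it was 1, and at 1.5-fold 4. Without a floor, where values within the background are compared, it was 15. Over all genes compared, 5.91% to 13.7% were lower under the 4 scalings and 17.2% with the doubled floor. The share was 13.9% with the offset, 23.6% with the median over probe sets and 25.3% without a floor. The median log2 ratio of -0.20 over Hoxa5 and Hoxa9 became 0.42 after median centring, 0.49 after quantile normalization and 0.43 after loess. After these 3 scalings the median gene was at 0.22, 0.12 and 0.07 in place of -0.40; the cause was not tested. No paired analysis was possible because each condition had 1 array. Low signal over background is the limit for 27 of the 33 genes.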
